A study of Mus musculus with 4 samples.

Results

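Chromatin that was open at the ends of genes in large-intestinal stem cells (LISC) and was not called in small-intestinal stem cells (SISC) formed a set of 445 regions. They are 445 of 119965 regions, which were built by joining peaks of the 4 ATAC-seq lists that shared 1 bp or more. Members were chosen by the deposited peak calls: a peak in both LISC lists and in neither SISC list. Each also had to lie on chromosomes 1 to 19 with some part within 1 kb of an annotated start or end of a protein-coding gene (RefSeq, mm10). Since the calls themselves chose the regions, their presence in LISC and absence in SISC is a description and was not tested. ATAC-seq uses the Tn5 transposase to insert adapters into accessible DNA. All 4 libraries came from untreated mice aged 6 to 12 weeks of the genotype Lgr5-EGFP-IRES-creERT2, in which EGFP reports the Lgr5 stem cell gene. The 2 SISC libraries were sorted as EGFP positive and CD24 negative from stretches of small intestine near the pylorus and near the cecum. The 2 LISC libraries were sorted as EGFP positive, with no CD24 gate stated, from the large intestine between cecum and rectum.

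Gene starts are where transcription begins, and at most active genes the start is nucleosome-poor and gives the strongest ATAC-seq peaks. Many starts lie in CpG islands, stretches rich in the CG dinucleotide that are open in most cell types, whereas tissue-restricted genes more often begin in CpG-poor DNA. The far end of a gene, where transcription stops, is less often accessible. The colonic epithelium is known for absorbing salt and water, for handling bacterial short-chain fatty acids and for living beside a dense microbiota, and its position along the gut is encoded by Hox genes.

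Between 83443 and 93220 peaks were listed per library, and read depth is unknown. Absence of a call does not show closed chromatin. All 21 general epithelial genes had an end called in each library, as did 24 to 26 of the 26 stem cell and Wnt target genes, whereas 13 of 20 immune genes had no end called in any. Stromal, endothelial, muscle and glial markers had an end called for 10 and 12 of 19 genes in the SISC libraries and for 10 and 7 in the LISC libraries. The labels do not say whether the replicates are separate animals. Chromosome Y held 6 peaks in the first SISC library, 8 in the first LISC library and 0 in both replicate 2 libraries, so replicates of a tissue differed in calls on that chromosome. The part of this in the results was not tested. No test over libraries is given, since 2 libraries against 2 are too few for an exact test to pass the usual threshold.

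DNA sequence was at hand for start windows only, so regions at far ends and in gene bodies were not examined by sequence. RefSeq's promoter table (GRCm38.p6, the same coordinates as mm10) gave 20085 windows for 16457 of the 20665 protein-coding genes, and 47 windows of 43 genes lay on a LISC-only region at a gene end. The windows below are the 250 bases before a tabulated start, 5′ to 3′ on the gene's strand, with every CG dinucleotide in capitals. They were picked, with their values known, for a region among the strongest 12 (L3mbtl4), for genes of salt transport (Scnn1b, Slc26a9), microbial and cytokine sensing (Ffar2, Il18r1) and xenobiotic metabolism (Sult1b1, Cyp2d10), and, as a CpG-rich contrast, St8sia6. Their positions are chr17:68273547-68273796 for L3mbtl4, chr7:121864788-121865037 for Scnn1b, chr1:131743772-131744021 for Slc26a9 and chr1:40465302-40465551 for Il18r1 on the plus strand. On the minus strand they are chr7:30823776-30824025 for Ffar2, chr5:87538196-87538445 for Sult1b1, chr15:82407195-82407444 for Cyp2d10 and chr2:13793521-13793770 for St8sia6.
L3mbtl4: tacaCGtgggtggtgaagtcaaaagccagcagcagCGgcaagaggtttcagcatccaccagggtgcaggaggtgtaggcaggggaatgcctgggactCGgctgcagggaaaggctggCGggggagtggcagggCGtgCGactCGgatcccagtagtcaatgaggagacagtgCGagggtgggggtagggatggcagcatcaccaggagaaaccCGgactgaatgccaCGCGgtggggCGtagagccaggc
Scnn1b: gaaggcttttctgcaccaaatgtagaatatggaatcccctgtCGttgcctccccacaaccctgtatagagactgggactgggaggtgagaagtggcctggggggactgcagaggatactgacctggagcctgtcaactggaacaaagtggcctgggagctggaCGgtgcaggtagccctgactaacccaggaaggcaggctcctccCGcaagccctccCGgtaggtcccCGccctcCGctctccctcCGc
Slc26a9: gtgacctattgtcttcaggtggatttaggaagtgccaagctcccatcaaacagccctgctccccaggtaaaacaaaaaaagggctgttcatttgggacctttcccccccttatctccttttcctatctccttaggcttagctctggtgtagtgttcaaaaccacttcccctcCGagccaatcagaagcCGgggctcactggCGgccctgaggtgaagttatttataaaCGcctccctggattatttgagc
Ffar2: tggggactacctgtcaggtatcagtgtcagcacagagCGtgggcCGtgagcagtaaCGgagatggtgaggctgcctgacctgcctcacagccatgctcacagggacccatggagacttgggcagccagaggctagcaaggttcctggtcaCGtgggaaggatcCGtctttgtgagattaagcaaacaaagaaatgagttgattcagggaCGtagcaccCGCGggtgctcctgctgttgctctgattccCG
Il18r1: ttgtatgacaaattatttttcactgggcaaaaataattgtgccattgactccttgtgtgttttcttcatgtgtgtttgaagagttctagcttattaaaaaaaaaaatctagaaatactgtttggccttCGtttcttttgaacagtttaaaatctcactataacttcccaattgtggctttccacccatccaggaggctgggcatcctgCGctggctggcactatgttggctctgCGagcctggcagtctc
Sult1b1: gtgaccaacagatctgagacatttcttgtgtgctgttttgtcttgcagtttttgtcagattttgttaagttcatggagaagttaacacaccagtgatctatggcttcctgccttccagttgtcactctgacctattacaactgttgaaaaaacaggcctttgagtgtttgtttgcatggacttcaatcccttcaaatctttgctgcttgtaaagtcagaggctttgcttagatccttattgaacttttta
Cyp2d10: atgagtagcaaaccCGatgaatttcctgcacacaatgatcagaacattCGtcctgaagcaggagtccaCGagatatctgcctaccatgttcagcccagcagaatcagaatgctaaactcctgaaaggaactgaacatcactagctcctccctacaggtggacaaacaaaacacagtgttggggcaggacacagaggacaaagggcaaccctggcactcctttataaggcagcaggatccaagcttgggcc
St8sia6: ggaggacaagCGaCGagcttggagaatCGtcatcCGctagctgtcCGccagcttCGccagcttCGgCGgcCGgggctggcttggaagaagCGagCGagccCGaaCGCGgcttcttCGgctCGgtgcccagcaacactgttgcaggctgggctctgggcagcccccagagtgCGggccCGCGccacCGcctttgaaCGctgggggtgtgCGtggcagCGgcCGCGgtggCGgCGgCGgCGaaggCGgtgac

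Most of these windows held few CpG sites. Sult1b1 had 0, Il18r1 and Cyp2d10 had 3 each, Slc26a9 had 4, Scnn1b 7, Ffar2 9 and L3mbtl4 12, beside 30 in St8sia6. Other tabulated start windows of Il18r1 on the same region, not shown, had 7 and 6. Over the 47 windows the median ratio of observed to expected CpG was 0.288 (quartiles 0.167 to 0.462), where the expectation comes from the C and G content of the window. The ratio was 0.744 over the 11955 windows with a peak in all 4 libraries, 0.426 over the 205 with a peak in both SISC and no LISC library, and 0.192 over the 7290 with no peak in any. A ratio above 0.6 was found in 12.8% of the 47 windows, 31.2% of the SISC-only windows, 70.0% of those open in all 4 libraries and 8.46% of those with no peak. The SISC-only class holds windows with a peak in both SISC and no LISC library, and the like class for LISC has 77 windows, with a median ratio of 0.262 and 11.7% above 0.6. These are values over windows, some of which overlap within a gene, and the differences were not tested.

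**Figure D1:**
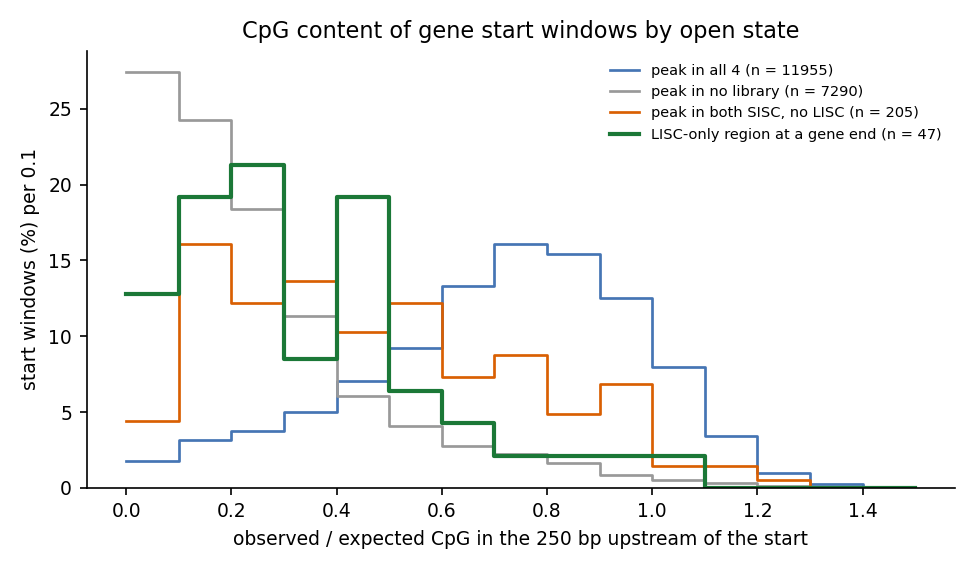
Distribution of the observed over expected CpG ratio (x axis, steps of 0.1) in the 250 bp before tabulated gene starts, as a percentage of the windows of each class (y axis). Windows on LISC-only regions (47) sit mostly below 0.6, near the 7290 windows without a peak and apart from the 11955 open in all 4 libraries.

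In all, 24 short motifs were counted in the same windows on both strands, and some are given here. The TATA box (TATAAA) was present in 11 of the 47 windows (23.4%), beside 11.7% of all 20085, and the GC box (GGGCGG) in 8 (17.0%), beside 43.4% of all. Windows with no peak in any library were near these values, at 21.4% for the TATA box and 13.2% for the GC box, and SISC-only windows stood at 14.1% and 35.1%. The forkhead motif TGTTTAC was in 5 windows (10.6%), beside 2.64% of all, 1.95% of the SISC-only and 3.51% of the windows with no peak. The nuclear receptor motif AGGTCA was in 9 (19.1%), beside 12.9%, 16.1% and 16.9% of the same classes. AP-1 (TGANTCA) was in 4 (8.51%), beside 6.18%, 9.27% and 9.19%. The GATA motif AGATAAG was in 3 (6.38%), beside 2.39%, 3.90% and 3.84%, and the CDX motif TTTATGG in 2 (4.26%), beside 2.08%, 3.90% and 2.92%. The homeodomain core TAATTA was in 0, beside 4.26%, 3.90% and 7.82%. Small counts moved both ways for other motifs. CACGTG was in 6 windows (12.8%), beside 6.69%, 7.80% and 3.37% of the same classes, and CCACACCC in 4 (8.51%), beside 3.34%, 2.44% and 2.85%. CCAATAAA was in 2 (4.26%), beside 0.886%, 1.46% and 1.10%. CCGGAAG was in 0, beside 9.21% of all, but 3.90% of the SISC-only and 2.52% of the windows with no peak. Among the windows shown, Slc26a9 has overlapping TATA box matches that begin 30 and 28 bases before the start and a GATA motif at 142 bases. The match at 28 bases is on the gene's strand and that at 30 bases on the opposite strand. Cyp2d10 has a TATA box match at 31 bases on the opposite strand (TTTATA as printed), and Ffar2 has an AP-1 motif at 52 bases. The nuclear receptor motif begins 132 bases before the start of Scnn1b, 175 before that of Ffar2 and 123 before that of Sult1b1, and it also lies at the outer edge of the Slc26a9 window. A match is a run of letters and not a binding site. Motifs can overlap one another.

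Few LISC-only regions lay at gene ends. They made up 3.73% of the 11919 LISC-only regions on chromosomes 1 to 19. Seen from the gene ends, LISC-only regions were 2.48% of the 17942 regions there, beside 10.2% of all 117196 regions on these chromosomes. The 445 regions touched 457 genes, 2.21% of the 20665 protein-coding genes, and 27 of them touched 2 genes. SISC-only regions touched 684 genes (3.31%). Another 372 gene-end regions with peaks in both LISC libraries had a peak in a single SISC library, and 653 had a peak in a single LISC library alone. The count moved when 1 library stood for a tissue: leaving out SISC replicate 2 gave 785 regions, leaving out LISC replicate 1 gave 792, and leaving out LISC replicate 2 gave 787.

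Peak strength in LISC was modest and similar in both libraries. The authors' −log10 q, MACS2's measure of how far a peak stands above the local background of its own library, had a median of 18.96 in LISC replicate 1 (range 3.98 to 250.5) and 13.6 in replicate 2 (2.84 to 159.4). The median fold over background was 3.92 and 3.27. Ranked within its own list, the median region stood at percentile 33.1 in replicate 1 and 30.6 in replicate 2, beside 32.8 and 33.0 for the 11474 LISC-only regions away from gene ends and 87.7 and 86.9 for the 13782 gene-end regions called in all 4 libraries. Of the 445, 61 were in the upper 50% of both lists and 312 in the lower 50% of both. Percentiles in both lists went together across the 445 regions (Pearson's r 0.69, Spearman's rho 0.63), a description of regions that all had to be called in each list. The summits of both libraries lay within 100 bp of each other at 370 regions, with a median gap of 30 bp.

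**Figure D2:**
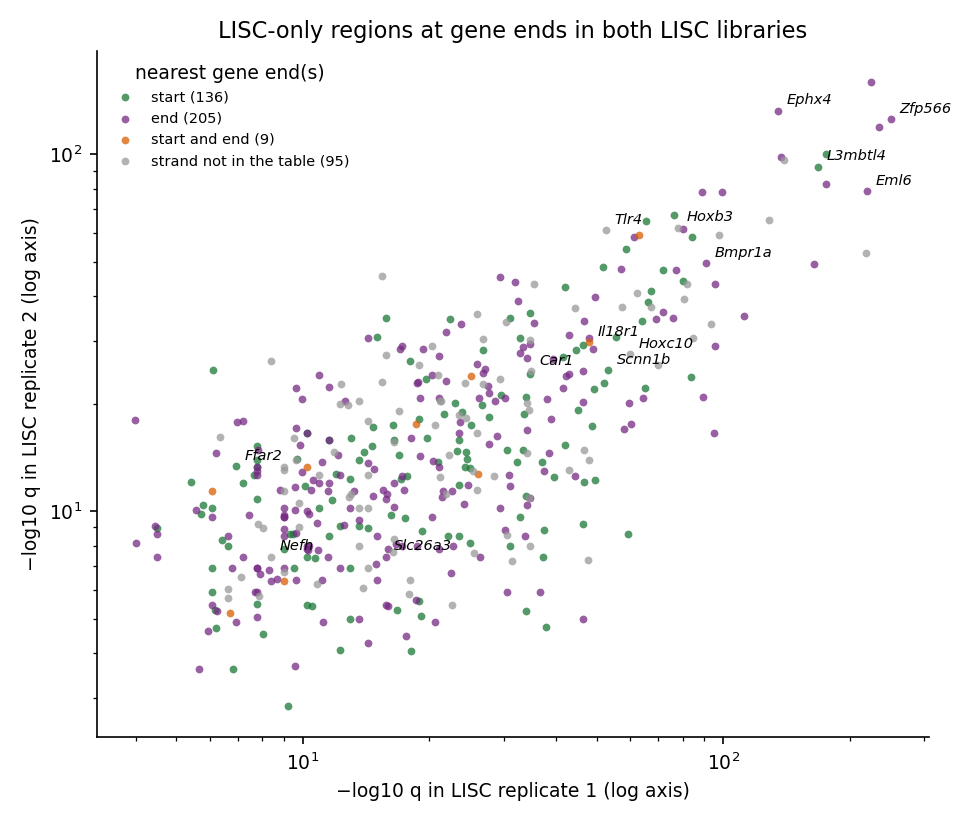
The authors' −log10 q of each of the 445 regions in LISC replicate 1 (x axis) and replicate 2 (y axis), on log axes, coloured by the gene end nearby. The points run along the diagonal from about the calling limit to 250.5 and 159.4. Of the colonic genes, Car1 lies above the set's upper quartile in both libraries and Slc26a3 below its median in both.

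**Figure D3:**
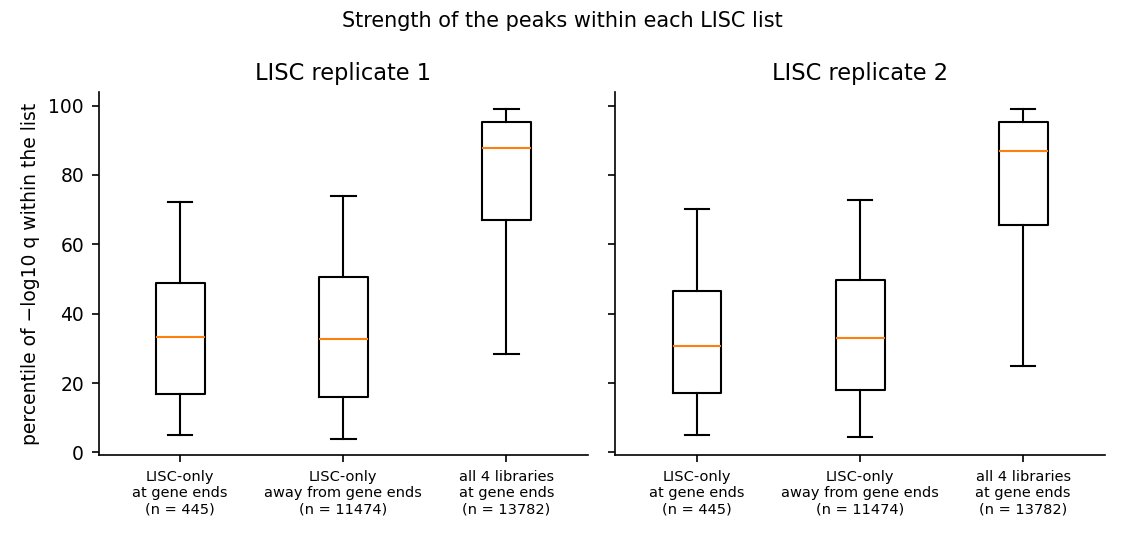
Percentile of −log10 q within each LISC list for 3 sets of regions (box, median and quartiles; whiskers, percentiles 5 and 95). LISC-only regions at gene ends and away from them overlap almost fully, and both lie below the shared gene-end regions.

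More of the regions lay at far ends than at starts. RefSeq's promoter table gave the strand for a gene at 350 of the regions: 136 were near a start, 205 near a far end and 9 near both. The share at a start was thus 41.4% (exact 95% interval 36.2 to 46.8, counting error over regions only). It was 55.7% for the 521 SISC-only regions with a known strand and 86.4% for the 11121 shared regions. The LISC share stayed lowest of the 3 in each of the 11 alternatives, but not always below 50%: it was 51.3% within 2500 bp, 56.6% with summit windows and 53.3% without SISC replicate 2, where it nearly met the SISC-only share of 53.7%. Of the 445, 131 covered a gene end, 140 lay up to 500 bp from it and 174 lay farther. The nearest SISC peak lay at a median distance of 3134 bp. It was within 1 kb at 121 regions (27.2%) and more than 10 kb away at 109. At the edge of the 1 kb window, Tmem248 and Pon1 were members at 998 bp, with a −log10 q of 46.3 and 9.21 for Tmem248 and 32.9 and 9.65 for Pon1 (LISC replicates 1 and 2). Just outside were regions 1002 bp from Impa1 (8.74 and 12.8) and 1003 bp from Pvrig (26.0 and 7.99).

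Genes fell into 3 kinds. At 310 of the 457 genes each of the 4 libraries had a peak near an end, written here as an end called in all 4 libraries. These peaks need not lie in the same region or at the same end, and the LISC-only region itself supplies LISC calls. At 142 genes an end was called in both LISC and in no SISC library. At the other 5 an end was called in some of the libraries. Starts and far ends were split differently between these kinds. Of regions whose nearest gene had an end called in LISC only, 64 were near a start and 33 near a far end. For genes with an end called in all 4 libraries these counts were 69 and 171. Counting every region near an end, whether LISC-only or not, 144 genes (0.697% of 20665) had an end called in both LISC and no SISC library. That number was 242 without SISC replicate 2. Where the nearest end was a start, the summit lay within 200 bp of it at 41 of 140 regions, farther before it at 48 and farther after it at 51. It lay within 200 bp at 34 of 69 regions of genes with an end called in LISC only. For genes with an end called in all 4 libraries this held at 6 of 68. A SISC peak lay within 1 kb of 57 of these 68 regions (median distance 398 bp) and of 1 of the 69 (median 15631 bp). This contrast follows largely from the grouping, which rests on SISC peaks near the ends. A LISC-only region cannot overlap a SISC peak and is thus kept off a start that SISC peaks cover. The summit positions are therefore not independent of the grouping either. A gene can have several starts: of the 142 genes, 106 had tabulated starts, and at 19 of these, among them Mdm4, Trmt13, Sult1b1 and Slc26a3, a tabulated start elsewhere was open in all 4 libraries. A tabulated start open in LISC alone was found at 38, and at 48 no tabulated start was called in any library.

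**Figure D4:**
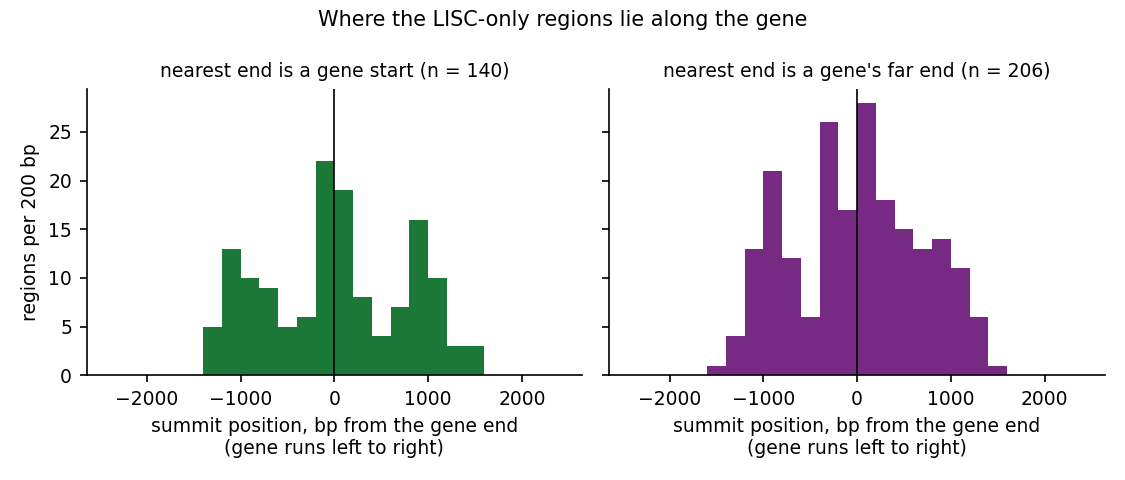
Position of the LISC summit relative to the nearest gene end, in bp along the direction of the gene (x axis), as regions per 200 bp (y axis), for 140 regions nearest a start and 206 nearest a far end. Around starts there is a peak at 0 with groups of regions near 1000 bp on either side. Both kinds of gene are pooled here. Summits within 200 bp of a start belong to 34 of 69 regions of genes with an end called in LISC only. They belong to 6 of 68 regions of genes with an end called in all 4 libraries.

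None of the 12 strongest regions belonged to a gene of the lists used here. The first, chr13:112867454-112868601, covered the far end of Mtrex, a helicase of the nuclear RNA exosome, beside an end of the lipid phosphatase gene Plpp1, with a −log10 q of 224.7 in LISC replicate 1 and 159.4 in replicate 2. Zfp566, a zinc finger gene, had 250.5 and 125.5 over its far end (chr7:30076661-30077638), and Eml6, a microtubule-binding protein gene, had 219.4 and 78.8 (chr11:29742085-29743149). Zfpm1, which encodes a cofactor of GATA factors, had 234.0 and 119.2, and Ephx4, of the epoxide hydrolase family, 134.7 and 132.4, both inside the gene and 881 and 806 bp from the far end. All 5 of these genes also had an end called in all 4 libraries. Zfpm1 also had 6 SISC-only regions against 2 LISC-only regions by nearest gene end. The other regions of the first 12 belonged to Tmem273, L3mbtl4, the predicted gene LOC108168726, the p53 inhibitor gene Mdm4, Shisal1, Bin2 and Adgrf3, an adhesion G protein-coupled receptor gene. Their −log10 q ran from 128.7 to 217.8 in LISC replicate 1 and from 52.9 to 100.2 in replicate 2, and their genes had an end called in both LISC and no SISC library.

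L3mbtl4, a gene of a chromatin reader of methylated histones, had a region (chr17:68273421-68274933) that lay 523 bp inside the outermost annotated start and covered the whole window shown above, before a tabulated start within the gene. It had a −log10 q of 167.9 and 92.4, lay 268545 bp from the nearest SISC peak, and was 1 of 6 LISC-only regions at the gene, which had none in all 4 libraries. In all, 14 member genes had at least 4 LISC-only regions by nearest gene end and none that was SISC-only or shared by all 4. Palmd had 12, Car1 8, Fbn1 and the neuropeptide Y receptor gene Npy1r 7 each, and Cbln4, Fut9, Il1rl2, L3mbtl4 and Tlr4 6 each. At Palmd, which encodes palmdelphin, the end region itself was weak (9.52 and 15.98). The 14 genes were picked out after their values were seen. The same count was not made over all protein-coding genes, so whether 14 is many cannot be said. High numbers were also counted at Myo10, an unconventional myosin gene, with 11, the semaphorin gene Sema6a with 10 and the sodium-calcium exchanger gene Slc8a1 with 9. Myo10 and Sema6a also had 7 and 2 SISC-only regions and 19 and 18 shared by all 4. The Slc8a1 region lay 624 bp inside the gene's outermost annotated start (67.2 and 41.3), and no tabulated start window of Slc8a1 was called in any library. At the other extreme, 69 regions were the sole region near an end of a gene with no further LISC-only region, led by Tmem273, Adgrf3, the tRNA methyltransferase gene Trmt13 (76.5 and 67.8, over its annotated start) and Hoxb3.

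Markers of the large-intestinal epithelium had such a region at 4 of 24 genes (16.7%), beside 2.21% of all genes. These lists were drawn up with earlier results of these data known, so the shares are descriptions without a test. Car1, a carbonic anhydrase of colonic epithelium, had a region 807 bp inside a gene end (chr3:14806775-14807558) with a −log10 q of 35.0 in LISC replicate 1 and 24.6 in replicate 2, and its nearest SISC peak lay 55115 bp away. Foxd2, a forkhead factor gene, had 38.9 and 18.1 just past its far end, and its nearest SISC peak lay 1373 bp away. Slc26a3, the chloride-bicarbonate exchanger gene, had 15.7 and 7.46 at 243 bp beyond its far end and fell outside the rule for named genes. Ends of 20 of the 24 genes were open in all 4 libraries.

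Colonic ion and water transport gave 4 of 26 genes (15.4%), of which Car1 and Slc26a3 are also in the list above. Scnn1b and Scnn1g encode the beta and gamma subunits of the epithelial sodium channel, which takes up sodium in the distal colon, and they are neighbours on chromosome 7. The Scnn1b region (chr7:121864754-121865500) covered the start shown above, with its mean summit 1.5 bp from it, and had 53.2 and 24.8 in LISC replicates 1 and 2. The Scnn1g region lay 474 bp beyond the gene's far end, with 48.0 and 30.6. The nearest SISC peaks lay 33877 bp from the Scnn1b region and 33865 bp from the Scnn1g region. Scnn1b had 4 LISC-only regions and none shared, whereas Scnn1g had 1 and 1. Slc26a9, a chloride transporter gene outside the list, had its start covered in LISC alone (26.6 and 19.9).

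Receptors of innate immunity and of the interleukin-1 family gave 4 of 25 genes, beside 2.21% of all genes. An end called in both LISC and no SISC library was found at 4 of the 25, beside 0.697% of all genes. These are the same 4 genes, and within the set 142 of 457 genes were of that kind. Tlr4, the receptor for bacterial lipopolysaccharide, carried a region over a gene end (chr4:66827305-66828547) with 52.4 and 61.2, and the nearest SISC peak lay 1184365 bp away. The other 3 form a run on chromosome 1. A region over the start of the interleukin-18 receptor gene Il18r1 (chr1:40465465-40465981) also lay near the far end of Il1rl1, the interleukin-33 receptor gene, and had 48.0 and 29.8. Il1rl2, the interleukin-36 receptor gene, had 26.8 and 28.2 at 463 bp inside its outermost annotated start. It had 6 LISC-only regions in all and no tabulated start window called in any library, and is named outside the rule. Immune cell markers had 0 of 20 genes in the set, and their ends were called for 5 and 4 genes in the LISC libraries and 7 and 6 in the SISC libraries. Other genes known from immune cells, outside that list, were in the set: C1qa, Wfdc17, Il12rb2 and Tnfrsf9. Each had an end called in both LISC and no SISC library, and they were named after their values were seen. The part of immune cells in these regions was not tested.

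Hox genes were found in all 4 clusters. Anterior paralogs gave 3 of 23 genes and posterior paralogs 3 of 16 (18.8%), beside 2.21% of all genes. Among the anterior genes, Hoxb3 and Hoxb5 were both counted for the same region. These are thus counts of genes and not of separate regions. The strongest region (chr11:96306626-96307248) covered an end of Hoxb3 and lay near one of its neighbour Hoxb5, with 78.0 and 62.3. Hoxb9 followed with 67.4 and 37.3 at 980 bp from an end, and Hoxc10 with 60.0 and 27.5 at 68 bp. Hoxa7 had 34.0 and 20.9 at 829 bp inside its start, and Hoxd9 19.3 and 28.5 at 691 bp past its far end. The nearest SISC peak lay 793 bp from the Hoxb9 region and 870 bp from the Hoxa7 region. It lay 3252 bp away for Hoxb3, 3306 for Hoxc10 and 2166 for Hoxd9. Ends of 19 of the 23 anterior and 10 of the 16 posterior genes were open in all 4 libraries, and at 2 posterior genes an end was called in both SISC and no LISC library. The Hoxc10 region lay 816 bp from the hairpin of Mir196a-2, a microRNA of the HoxC cluster known to target Hox messages. It was 1 of 3 hairpins within 1 kb of the 445 regions, of 919 on these chromosomes. Another was Mir147, 485 bp from a region past the far end of AA467197 (30.8 and 12.6). Their mature sequences follow from RefSeq, with the seed (bases 2 to 8) in capitals.
miR-196a-5p: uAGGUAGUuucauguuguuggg
miR-147-5p: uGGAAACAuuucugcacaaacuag

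**Figure D5:**
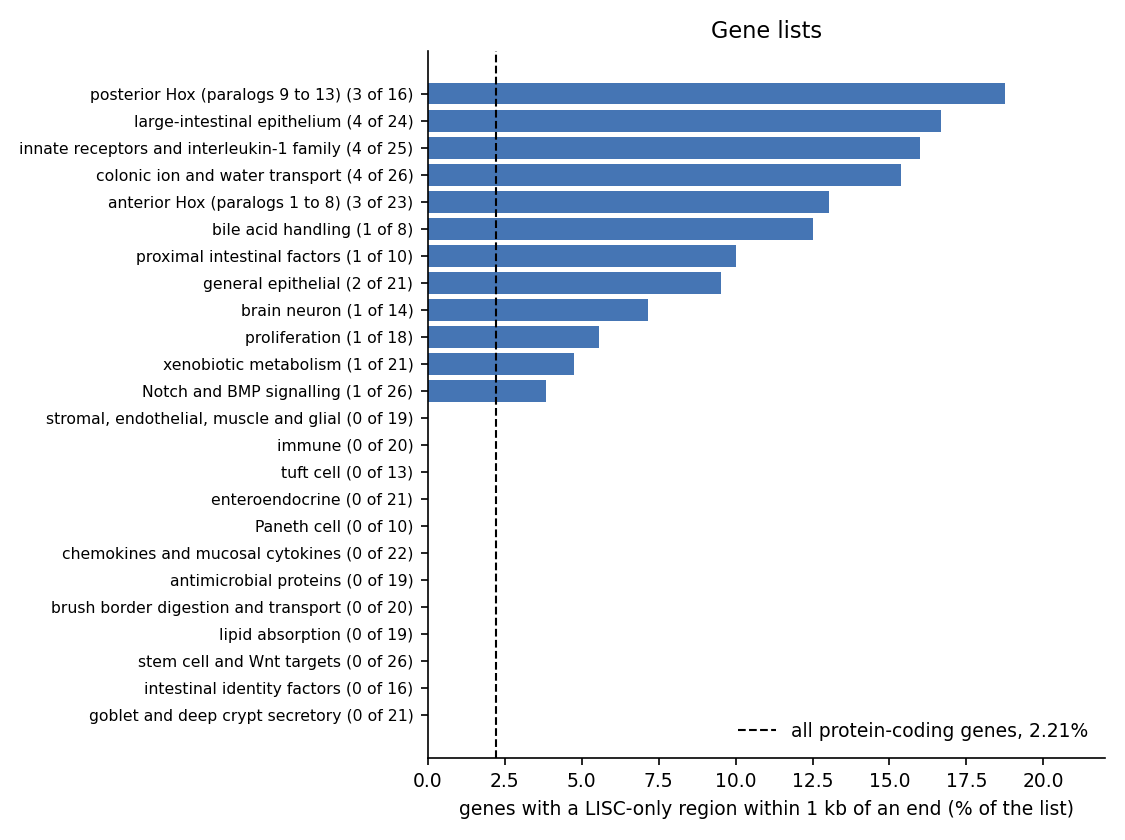
Share of each list's genes with a LISC-only region within 1 kb of an end (x axis, %), with counts in the labels and the share of all protein-coding genes (2.21%) as a dashed line. Hox, large-intestinal, innate receptor and ion transport lists have the highest shares, up to 18.8%, and 12 lists are at 0.

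Of the 24 lists, 12 had no gene in the set. These were the goblet and deep crypt secretory genes (0 of 21), the intestinal identity factors (0 of 16), the stem cell and Wnt targets (0 of 26), lipid absorption (0 of 19), brush border genes (0 of 20), antimicrobial proteins (0 of 19), chemokines and mucosal cytokines (0 of 22) and the Paneth (0 of 10), enteroendocrine (0 of 21), tuft (0 of 13), immune (0 of 20) and stromal lists (0 of 19). At a background of 2.21% a list of this size holds few members, and the lists hold 10 to 26 genes. Chemokines outside the list were in the set: by symbol, chemokines and their receptors gave 3 of 53 genes (5.66%), namely Ccl7 (48.0 and 13.9), Ccl8 (26.1 and 12.7) and Ccr10 (17.9 and 5.87), which were named after their values were seen. Remaining lists held 1 or 2 genes. Bmpr1a, a receptor of bone morphogenetic proteins, had 91.1 and 49.5 over its far end, and Mcm5, of the replicative helicase, had 34.6 and 29.4 at 649 bp inside its far end. Sult1b1, a cytosolic sulfotransferase gene, had its annotated start covered (chr5:87538080-87538431, 18.0 and 26.3), and its neighbour Sult1d1 had a region inside its start (39.4 and 12.4). The others were weak: Tjp1, of tight junctions, had 17.2 and 12.5, Krt7 10.3 and 9.79, Pdx1, a proximal transcription factor, 7.46 and 9.77 at 921 bp from its far end, the neurofilament gene Nefh 8.39 and 7.46, and Nr0b2, a nuclear receptor of bile acid signalling, 8.68 and 6.45. Ffar2, a receptor for short-chain fatty acids that no list held, was chosen after its values were seen: its start was covered in LISC alone (chr7:30823460-30824013) with 6.95 and 13.4, below the set's median in both libraries, and was kept in 9 of the 11 alternatives.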

How the data were processed

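ATAC-seq libraries (2 SISC, 2 LISC) were made from 50000 lysed cells with 10 PCR cycles, per the labels' protocols. The submitters' processing notes name the build mm10 and the tools MACS2 2.2.7.1, bedtools, Picard, Bowtie2 2.3.4.1 and cutadapt 3.4. The sources used here do not give their order, any Tn5 shift, the handling of duplicates or the calling threshold. The authors deposited 1 MACS2 peak list per library, as the peak names show. For every peak the authors give its fold (ratio) over local background. The authors also give −log10 p and −log10 q values. The score that the authors deposited equals the −log10 q times 10 and went unused. Summit offsets gave positions. All of these move with a library's depth, which is unknown, so peaks were ranked only within a list.

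Merged regions were assigned from RefSeq's gene table (GRCm38.p6), which gives the outermost ends of each gene and no exons; strand came from RefSeq's promoter table (16457 of 20665 genes). A region took its strongest peak's values. Regions within 100 kb were counted for the gene with the nearest end. Groups followed the sample titles. No test was run, since the calls chose the regions and 2 libraries against 2 are too few. The members, the 24 lists, 25 symbol families and 24 motifs were chosen with earlier results of these data known. Named were the 12 regions with the highest mean within-list percentile, up to 3 per list, the 5 genes with most LISC-only regions, the 4 highest-ranked sole regions and the 2 regions on each side of the 1 kb limit; others are marked, and 1 gene that the rule names is not reported here. Merging and distances were tested on simulated data against bedtools 2.31.1. Computation used pandas 2.3.3, numpy 2.4.6, scipy 1.17.1 and matplotlib 3.10.9 under Python 3.11.15.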

Additional observations from a re-analysis of the deposited data

Results flagged for a closer look

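Chromosome X, which the set leaves out, held 13 more LISC-only regions within 1 kb of a protein-coding gene's end, in data that the comparisons did not use. They are 13 of 524 gene-end regions on X, about the share on chromosomes 1 to 19 (445 of 17942). They were near Cacna1f, Rbm10, Slc25a5, Zfp449, Avpr2, Pabpc5, Nrk (2 regions), Ripply1, Vsig1, Iqsec2, Grpr and Asb11. The strongest, at Pabpc5, had a −log10 q of 30.2 in LISC replicate 1 and 32.2 in replicate 2. The weakest, at Asb11, had 8.39 and 4.53.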

How the results depend on the processing

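Of the 445 regions, 147 were kept in all 11 alternative settings, as were 16 of the 39 regions named by rule. With all libraries kept, the window was the setting that moved the count of regions by more than 1.5 times: 271 within 500 bp and 982 within 2500 bp, at 282 and 1034 genes. Leaving out each library in turn gave 525 to 792 regions, 563 to 810 genes, and 169 to 242 genes with an end called in LISC alone (the highest without SISC replicate 2). The share of regions at a start was 35.7% within 500 bp, 51.3% within 2500 bp, 56.6% with summit windows of 200 bp, 47.0% at a −log10 q of at least 10, and 40.9 to 53.3% without each library. The remaining alternatives (50% cover, a −log10 q of at least 5, equal list lengths) left these values within 1.5 times, or the share within its interval. A −log10 q of at least 10 kept 266 of the 445 regions (59.8%). No paired analysis was possible because the deposited lists hold calls and no read counts, and no result comes from a test. Replicate numbers go with the calls on chromosome Y in both tissues (6 and 8 peaks in replicates 1, 0 in replicates 2). Depth is unknown, so how near a region came to the calling limit in SISC could not be measured.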

Other observations

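Some receptor genes outside the lists were in the set, and those named here were chosen after their values were seen. The start of Npy1r was covered by a region with a −log10 q of 13.6 in LISC replicate 1 and 9.09 in replicate 2, and the nearest SISC peak lay 162528 bp away. Gpr183, an oxysterol receptor gene, had 2 regions near its far end (29.4 and 45.4, and 34.7 and 10.9). The serotonin receptor gene Htr2b had 10.3 and 16.5 over its outermost annotated start, but no tabulated start window of Htr2b was called in any library. By symbol, 5 of 99 orphan and adhesion G protein-coupled receptor genes were in the set (5.05%), and 3 of 32 genes of the TNF superfamily and its receptors (9.38%), namely Tnfsf15, Tnfrsf8 and Tnfrsf9, beside 2.21% of all genes. Olfactory and vomeronasal receptors gave 6 of 1458 (0.412%). Olfr655 stood out among these with 63.0 and 59.3, a region that covered both ends of the gene.

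Genes of glycan synthesis gave 5 of 101 (4.95%), among them Fut9, St8sia6, B3galt2 and the pair St6galnac4 and St6galnac6, which share a region. Abo, the blood group glycosyltransferase gene, was outside that symbol family and had 26.8 and 30.4 over a gene end that was called in both LISC and no SISC library. Potassium channel genes gave 4 of 92 (4.35%), with 2 regions at Kcnv2, and solute carriers 10 of 362 (2.76%), beside 2.21% of all genes. Cadherins and protocadherins (0 of 90), serpins (0 of 62) and collagens (0 of 42) had none. Fbn1, Fap and Mmp2, genes known from connective tissue, were also in the set, while the stromal list itself had 0 of 19 members and its ends were called for 10 and 7 genes in LISC and 10 and 12 in SISC; their part in these regions was not tested. By chromosome the set held 1.43 regions per 100 protein-coding genes on chromosome 7 and 2.82 on chromosome 1.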
